A study of Mus musculus with 33 samples.

Results

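Presynaptic vesicle release genes, the genes whose products store transmitter in vesicles, dock and prime the vesicles at the active zone and fuse them with the membrane when calcium enters, were followed through sleep loss, recovery sleep and loss of Mef2c in the mouse frontal cortex. They are 56 of the 21565 genes of the expression table, taken by their symbols: 17 calcium sensors and related C2 proteins, 4 SNAREs, 7 SNARE partners, 15 active zone and priming genes and 13 vesicle proteins. All 56 were measured above the minimum level (1 CPM, a read count scaled to its library total, in every library of a compared group) in all 9 comparisons.

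RNA of 33 libraries, each from the frontal cortex of an adult male mouse on a C57BL/6J background, was collected at zeitgeber time (ZT) 6. The 20 WT mice slept ad libitum (control sleep, CS, n = 6), were kept awake for 6 hr on a slowly moving treadmill (sleep deprivation, SD, n = 7), or had 2 hr of recovery sleep after 4 hr of deprivation (RS, n = 7). The Mef2c f/f mice carried loxP sites around 1 exon of Mef2c, the gene of the transcription factor MEF2C, without Cre (4 CS and 3 SD), and in the Mef2c-cKO mice Cre under the Camk2a promoter, which is active mainly in forebrain excitatory neurons, recombined that exon (3 CS and 3 SD). The study notes that some Mef2c-cKO mice also carried 1 recombined allele in the tail, so loss of 1 copy was not limited to Camk2a neurons in them. It describes all but 1 of the 3 Mef2c-cKO CS samples as having this recombination, with similar clustering of genes in the remaining sample.

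Transmitter release is a cycle of protein assemblies. RIM, Munc13 (Unc13), ELKS (Erc), liprin-alpha (Ppfia), Bassoon (Bsn) and Piccolo (Pclo) build the active zone and make docked vesicles fusion-competent. The SNAREs of vesicle (Vamp) and plasma membrane (Stx1a and Snap25) then zip together under the control of complexins (Cplx), and synaptotagmins (Syt) and Doc2 proteins couple fusion to calcium. Synapsins (Syn), SV2 proteins, synaptophysin (Syp), synaptoporin (Synpr), Rab3 GTPases and the glutamate transporters Slc17a6 and Slc17a7 sit on the vesicle itself.

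The promoters of a pair of active zone genes that fell in SD (Rims1 and Ppfia2) and of a pair of members that rose (Sv2a and Ppfia3) are printed to show the letters before genes that moved in opposite directions. Each is the 250 bases before the annotated start, 5′ to 3′ on the gene's strand (RefSeq, GRCm38.p6), with the GC box (GGGCGG or its reverse complement CCGCCC) in capitals.
Rims1, chr1:22806159-22806408, minus strand: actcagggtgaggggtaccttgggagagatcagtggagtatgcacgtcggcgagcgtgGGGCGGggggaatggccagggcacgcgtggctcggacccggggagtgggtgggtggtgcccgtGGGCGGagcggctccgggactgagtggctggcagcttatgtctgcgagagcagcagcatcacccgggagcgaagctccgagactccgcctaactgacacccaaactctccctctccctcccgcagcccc
Ppfia2, chr10:106470060-106470309, plus strand: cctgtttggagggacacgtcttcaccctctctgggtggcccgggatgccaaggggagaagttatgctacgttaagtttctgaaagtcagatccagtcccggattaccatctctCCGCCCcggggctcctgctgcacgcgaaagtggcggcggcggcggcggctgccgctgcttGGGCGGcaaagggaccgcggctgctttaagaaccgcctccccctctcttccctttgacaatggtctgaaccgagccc
Sv2a, chr3:96180977-96181226, plus strand: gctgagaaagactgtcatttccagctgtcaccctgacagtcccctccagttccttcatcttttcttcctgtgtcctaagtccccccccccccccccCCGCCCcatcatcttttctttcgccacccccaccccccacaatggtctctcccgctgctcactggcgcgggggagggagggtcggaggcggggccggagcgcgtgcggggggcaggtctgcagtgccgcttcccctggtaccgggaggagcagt
Ppfia3, chr7:45367020-45367269, minus strand: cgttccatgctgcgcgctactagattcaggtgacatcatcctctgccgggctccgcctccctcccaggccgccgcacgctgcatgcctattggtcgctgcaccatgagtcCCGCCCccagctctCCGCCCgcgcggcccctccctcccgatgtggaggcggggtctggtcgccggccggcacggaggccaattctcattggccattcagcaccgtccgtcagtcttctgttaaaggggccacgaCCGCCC
The Rims1 and Ppfia2 windows held 2 GC boxes each, the Sv2a window 1 and the Ppfia3 window 3, so the motif was present in both pairs. RefSeq promoter windows of 300 bases (250 before the start and 50 after it) were at hand for 43 of the 56 members, 57 windows in all. A GC box lay in 40 of these 57 windows (70.2%), where 35.7% of all 32851 windows hold one. The 10-base MEF2 element, searched on both strands, was in 0 of the 57 windows and in 3.19% of all windows. These are matches of letters and say nothing of the factors' binding.

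**Figure D1:**
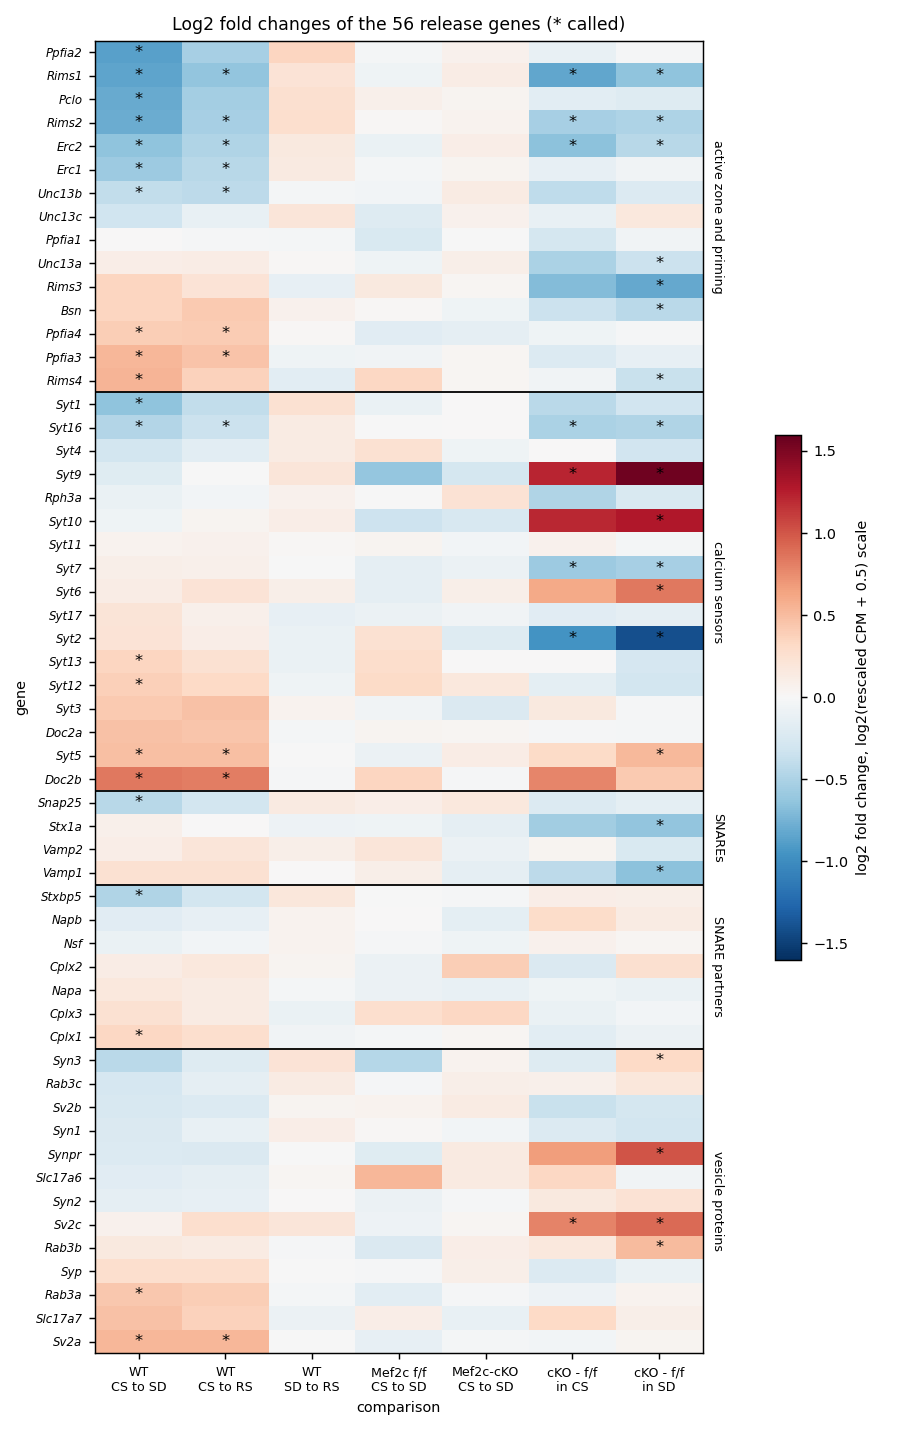
Log2 fold changes of the 56 release genes (rows, grouped by role and ordered by the WT CS to SD value) in the 7 comparisons of pairs of groups (columns), with blue for lower, red for higher in the group named last, and in Mef2c-cKO (cKO) against Mef2c f/f (f/f). An asterisk marks a called gene, and the columns hold 21, 11, 0, 0, 0, 8 and 20 of them from left to right.

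Per kilobase of exon, Syt1, the fast calcium sensor of forebrain synapses, had the highest level in WT CS, 470 rescaled CPM per kb, followed by Snap25 with 353, Rims1 with 229, Erc2 with 167 and Syp with 122. The lowest were Doc2b with 2.09, Cplx3 with 2.67 and Syt9 with 3.32. Rescaled CPM are CPM divided by a size factor per library, and levels and fold changes below are on that scale, with 0.5 added before log2. The library totals ran from 18935045 to 249046089 reads, with group medians of 29639972 to 127814796. Markers of excitatory neurons were expressed in every group, with summed levels of 1461 to 2549 rescaled CPM per library, and all 4 cerebellar granule cell markers had group means under 1 CPM.

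MEF2C is the factor that was removed, so its gene was examined first. Mef2c was at 1431 ± 323 rescaled CPM in WT CS (SD, n = 6), fell to 815 ± 112 in WT SD (n = 7) and was at 924 ± 194 in WT RS (n = 7). In Mef2c f/f it was at 1147 ± 67.3 in CS (n = 4) and 1263 ± 136 in SD (n = 3). The Mef2c-cKO CS libraries were at 957, 1608 and 1727, and the mean in Mef2c-cKO SD was 1311 ± 192 (n = 3). The count over the whole gene was therefore not lower in the libraries labelled Mef2c-cKO. It covers every exon, and only 1 exon is floxed, so it does not check the deletion.

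The first question was what 6 hr of sleep loss does to the release genes in WT mice. Of the 56 genes, 21 were called, at a limma adjusted p of at most 0.05 and a log2 fold change of at least 0.3 in either direction: 10 rose and 11 fell. The background was wide, since 45.1% of all 12913 genes tested were called (24.6% higher and 20.5% lower), so 21 of 56 is not above the background. The median log2 fold change was 0.08 over the members and 0.04 over all genes tested. By role, the calls were 7 of the 15 active zone and priming genes lower and 3 higher. Of the 17 calcium sensors and related C2 proteins, 2 were lower and 4 higher. The 4 SNAREs had 1 lower, and the 7 SNARE partners had 1 in each direction. Of the 13 vesicle proteins, 2 were higher and 0 lower.

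The active zone genes that fell held the largest falls of the set. Rims1, which encodes the RIM scaffold that links vesicles, Munc13 and calcium channels, ranged from 1426 to 2143 rescaled CPM in WT CS (median 1674) and from 822 to 1095 in SD (median 906). No SD library reached the lowest CS library. The fall was 44.4% (log2 fold change −0.85 ± 0.11 SE, adjusted p = 0.00039). Rims2, its close relative, went from 824 to 1425 (median 933) in CS to 468 to 674 (median 577) in SD, again with no overlap (−0.79 ± 0.12, adjusted p = 0.00072). Ppfia2, a liprin-alpha that organizes the active zone, went from 647 to 1309 (median 720) to 365 to 490 (median 450), also with no overlap (−0.87 ± 0.15, adjusted p = 0.0011).

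Pclo, the giant scaffold Piccolo, was at 789 to 1702 (median 1099) in CS and 541 to 795 (median 588) in SD (−0.80 ± 0.16, adjusted p = 0.0024), and the groups met at the edge. Erc1 (ELKS) was at 167 to 219 in CS (median 176) and 104 to 136 in SD (median 123), without overlap (−0.58 ± 0.09, adjusted p = 0.00065). Erc2, its brain-enriched relative, was at 1368 to 1830 (median 1680) and 766 to 1511 (median 1039), and 1 or more SD libraries reached into the CS range (−0.64 ± 0.14, adjusted p = 0.0044). The priming factor Unc13b was the last of the 7 that fell (−0.39 ± 0.10, adjusted p = 0.0078). Relatives of these genes rose or were not called. Ppfia3 rose (0.53 ± 0.16, adjusted p = 0.015), as did Ppfia4 (0.39 ± 0.16, adjusted p = 0.049) and Rims4, a short RIM that has lost the long forms' Rab3 and Munc13 binding part (0.54 ± 0.20, adjusted p = 0.039). Of 13 fits that each left out 1 library, Ppfia4 was called in 4, Rims4 in 6 and Ppfia3 in 13. With a trend on base composition and transcript length removed, these 3 were not called (Ppfia3 −0.030, Ppfia4 0.0037, Rims4 0.195). Of the 7 that fell, only Unc13b lost its call there (−0.0077). Ppfia1, Rims3, Unc13a, Unc13c and Bsn were not called.

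Among the calcium sensors and related C2 proteins, Syt1 fell by 35.9% (−0.64 ± 0.12, adjusted p = 0.0015). It went from 3392 to 5310 rescaled CPM in CS (median 3661) to 2267 to 2792 in SD (median 2373), without overlap. Syt16, a synaptotagmin without the calcium-binding residues, was at 198 to 235 (median 215) and 141 to 183 (median 150), also without overlap (−0.46 ± 0.08, adjusted p = 0.0012). Doc2b, a high-affinity sensor of spontaneous and asynchronous release, moved the other way. It rose by 78.9%, from 6.94 to 13.0 (median 7.88) to 14.2 to 21.0 (median 15.9), with every SD library above every CS library (0.84 ± 0.15, adjusted p = 0.0012), although it is the least abundant member per kb. Syt5 was at 45.4 to 79.5 (median 74.3) in CS and 72.5 to 110 (median 102) in SD, with overlap (0.48 ± 0.14, adjusted p = 0.012). Syt12 (0.39 ± 0.11) and Syt13 (0.35 ± 0.11) rose as well, with adjusted p = 0.010 and 0.018. The other fast sensors, Syt2 (0.21 ± 0.15) and Syt9 (−0.19 ± 0.13), were not called, nor was the slow sensor Syt7 (0.09 ± 0.08).

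Of the 4 SNAREs, 1 was called. Snap25 was at 1862 to 3386 in CS (median 2242) and 1428 to 2073 in SD (median 1822), and the groups overlapped (−0.45 ± 0.15, adjusted p = 0.023). Stx1a (0.09 ± 0.11), Vamp1 (0.25 ± 0.16) and Vamp2 were not called. Stxbp5, or tomosyn, which holds SNAREs out of the fusion complex, fell from 329 to 489 (median 348) to 237 to 300 (median 259), without overlap (−0.48 ± 0.10, adjusted p = 0.0025). Cplx1, which clamps and then promotes SNARE zippering, rose from 164 to 224 (median 196) to 196 to 278 (median 253), with overlap (0.33 ± 0.10, adjusted p = 0.015). Cplx2, the most abundant complexin per kb, was not called (0.12 ± 0.13), nor were Nsf, Napa and Napb, which take spent SNARE complexes apart.

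Of the vesicle proteins, Sv2a, the glycoprotein bound by levetiracetam, rose from 124 to 247 (median 208) to 259 to 318 (median 274), without overlap (0.53 ± 0.14, adjusted p = 0.0079). Rab3a, the vesicle GTPase that RIM binds, rose from 149 to 301 (median 211) to 215 to 368 (median 297), with overlap (0.43 ± 0.16, adjusted p = 0.040). Syp (0.27 ± 0.13, adjusted p = 0.097), the 3 synapsins and both glutamate transporters were not called. Groups that did not overlap were seen for 2 members higher in SD and 7 lower, where 4.68% of all genes were higher and 10.4% lower without overlap.

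**Figure D2:**
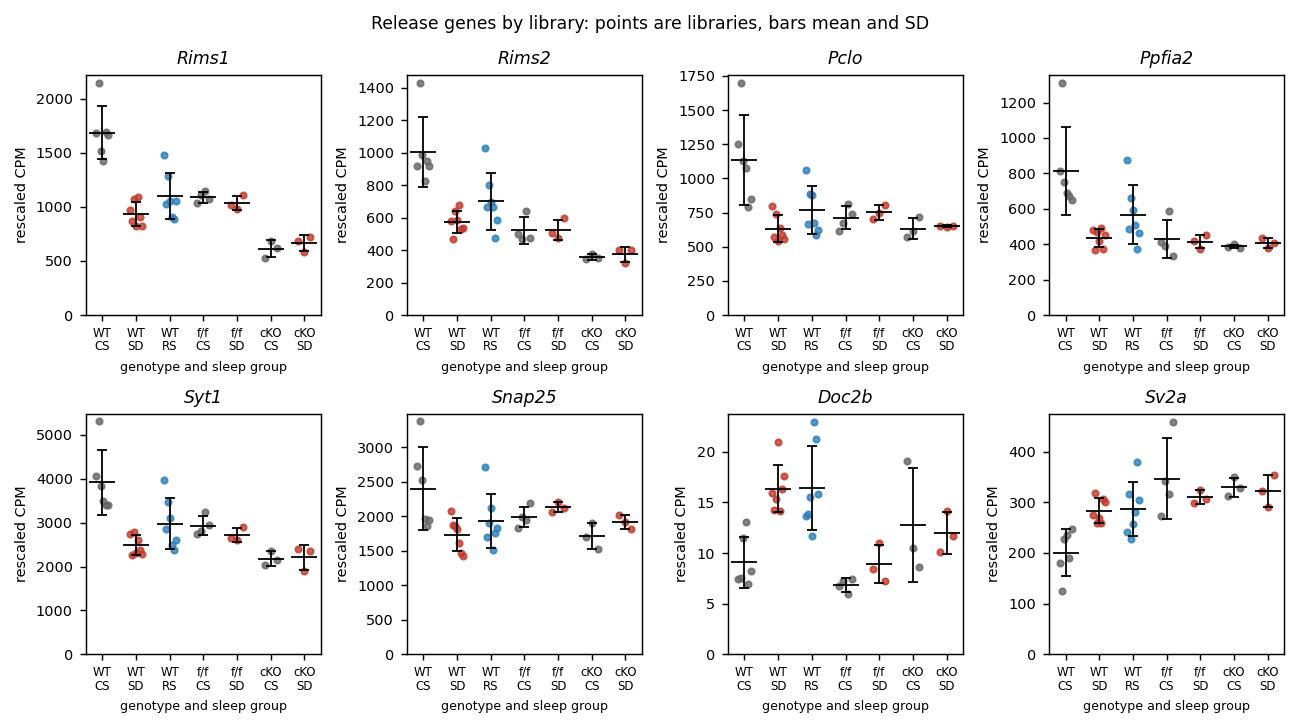
Rescaled CPM per library (points) of 8 release genes in the 7 genotype and sleep groups, with bars for the mean and SD. In WT, every SD library lies below every CS library for Rims1, Rims2, Ppfia2 and Syt1 and above it for Doc2b and Sv2a, while the Mef2c f/f (f/f) and Mef2c-cKO (cKO) CS and SD groups lie close to each other.

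WT CS replicate 2 stood apart, with a size factor of 0.716 against 0.855 to 0.911 in the other CS libraries, and it was the highest CS library for Syt1, Ppfia2, Rims1, Rims2, Stxbp5 and Erc1. Without it, 16 members were called, 5 higher and 11 lower, where 4509 of all 12920 genes were called (2425 higher and 2084 lower). The 5 members lost were Syt12, Syt13, Cplx1, Ppfia4 and Rab3a. In bulk RNA, fewer cells of a type and less RNA per cell cannot be told apart. The summed meningeal fibroblast markers were at 10.3 to 43.3 rescaled CPM in WT CS and 49.9 to 83.4 in SD, and thalamic markers at 637 to 1180 and 436 to 986. Of the 5 thalamic markers, 2 were called higher and 1 lower in SD (median log2 fold change 0.07), so that list did not move one way. The striatal markers were at 215 to 478 in CS and 356 to 729 in SD, with 3 of 6 called higher and all 6 positive (median log2 fold change 0.54). The part of these markers' cells in the result was not tested.

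The direction of a member's change went with the base composition of its transcript. GC content of the longest annotated transcript was 52.1% to 60.9% (median 55.7%) in the 10 members that rose and 38.7% to 50.4% (median 45.4%) in the 11 that fell, so these groups of genes did not overlap. Of 30 members with at least 50% GC, 10 rose and 1 (Erc1) fell. Of 26 members under 50%, 0 rose and 10 fell. The shares of all genes called in these bands, and the relation over all genes, are not given here. The pattern is therefore not read as particular to the members. Ranked over the 56 genes, the change in SD had a Spearman rho of 0.74 with GC content and of −0.54 with exon length, which is a description, since the genes share their libraries. The same rho with GC content was 0.73 from WT CS to RS, 0.061 from CS to SD in Mef2c f/f and −0.28 in Mef2c-cKO. After a fitted trend on base composition and transcript length had been taken out of each library, 11 members were called in WT SD, 2 higher and 9 lower, where 20.5% of all genes were called (9.3% higher and 11.2% lower). Doc2b, Rims1, Rims2, Pclo, Erc1, Erc2, Ppfia2 and Syt1 were among them with their direction unchanged, 13 of the 21 calls were lost, and Stx1a and Syn1 (lower) and Syp (higher) were called instead.

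**Figure D3:**
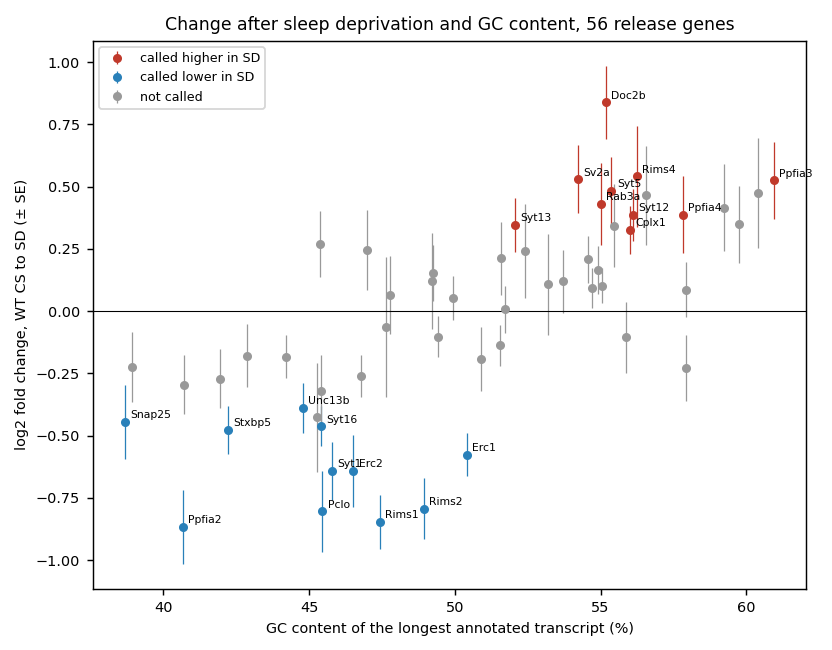
Log2 fold change from WT CS to SD (± SE) against GC content of the longest annotated transcript (%) for the 56 release genes. The 10 called higher (red) lie at 52.1% GC or more, and the 11 called lower (blue) at 50.4% or less.

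The scale also bears on the direction. On CPM as deposited, where the median of all genes from WT CS to SD moved to 0.30, 27 members were higher and 7 lower, where 47.3% of all genes were higher and 6.2% lower. With quantile normalization 17 were higher and 6 lower, where the shares of all genes were 17.9% and 20.7%. Under both, Rims1, Rims2, Pclo, Ppfia2 and Erc1 remained lower and Doc2b and Sv2a higher.

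Calls in both directions were also seen in 3 further lists of release machinery. Of 57 further release genes, 50 were tested and 7 rose and 17 fell (median log2 fold change −0.11), led by Prrt2 (1.32), the inhibitory vesicle transporter Slc32a1 (1.06) and the priming factor Cadps2 (−0.90). Of 35 vesicle endocytosis genes, 10 rose and 8 fell (median 0.11), led by the clathrin adaptor subunits Ap2s1 (0.97) and Ap2a1 (0.71) and by Sh3gl1 (0.72). Of 10 calcium channel genes of the release site, 1 rose and 4 fell (median −0.29), with Cacna2d1 at −0.76, Cacnb4 at −0.64 and Cacnb1 at 0.55.

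The next question was whether 2 hr of recovery sleep brought the members back. From WT CS to RS, 11 members were called, 5 higher and 6 lower, where 17.5% of all 12752 genes were called (9.28% higher and 8.22% lower). Groups did not overlap for 0 members higher and 2 lower (Erc1 and Unc13b), where 1.70% and 2.02% of all genes did not. All 11 had also been called in SD, in the same direction, and both comparisons share the CS libraries. In RS, Rims1 was at 885 to 1480 rescaled CPM (median 1056), 35.2% below CS (−0.63 ± 0.13, adjusted p = 0.033). Rims2 (−0.53 ± 0.16), Erc2 (−0.49 ± 0.13), Erc1 (−0.44 ± 0.10), Unc13b (−0.41 ± 0.08) and Syt16 (−0.34 ± 0.09) were the other members called lower, with adjusted p of 0.033 to 0.044. Doc2b was at 11.7 to 22.9 (median 15.6; 0.82 ± 0.18, adjusted p = 0.033) and Sv2a at 227 to 380 (median 280; 0.53 ± 0.16, adjusted p = 0.041). Syt5 (0.48 ± 0.13), Ppfia3 (0.46 ± 0.15) and Ppfia4 (0.41 ± 0.13) made up the 5 higher.

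Some of the members that fell in SD were not called in RS. Syt1 was at 2386 to 3978 (median 2855), between its SD and CS levels (−0.40 ± 0.15 against CS, adjusted p = 0.063), Ppfia2 at 371 to 877 (median 508; −0.53 ± 0.20, adjusted p = 0.062) and Pclo at 584 to 1062 (median 675; −0.54 ± 0.18, adjusted p = 0.051). A missed threshold does not show a return. From SD to RS itself, 0 members were called by limma (2, Stxbp5 and Ppfia2, at an unadjusted p of at most 0.05), and 0 by edgeR and by DESeq2. Limma and edgeR each called 0.0232% of all 12921 genes (0.0155% higher and 0.00774% lower), and DESeq2 called 0.418%. The 11 members that fell in SD had SD to RS values of −0.03 to 0.34 (median 0.19), 10 of them positive, and the 10 that rose had values of −0.17 to 0.02 (median −0.04). These values share the SD libraries with the comparison that picked the genes.

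The RS count depended on single libraries. Without RS replicates 3, 4, 5, 6 or 12 in turn, or CS replicate 3, the count was 0, without CS replicate 2 it was 1, without CS replicate 1 it was 2, and without each of the others 13 to 18. The calls over all genes moved in the same way, from 2232 in the main fit. They were 0 without RS replicates 3, 5, 6 or 12 and 3 without RS replicate 4. Without CS replicate 2 they were 98, and without CS replicate 1 they were 223. The loss was therefore not particular to the members. Without CS replicate 2 the log2 fold changes of the 10 members lost kept their direction, with Rims1 at −0.55 and Doc2b at 0.77, both at an adjusted p of 0.050. With the trend on base composition and transcript length removed, 3 of the 11 calls stayed, Doc2b (0.56), Rims1 (−0.49) and Erc1 (−0.38), where 5.12% of all genes were called. Among the 8 lost, Rims2 was at −0.49, Sv2a at 0.31, Syt5 at 0.15, Unc13b at −0.12 and Ppfia3 at −0.0038. The striatal markers summed to 381 to 605 in RS against 215 to 478 in CS, with 3 of 6 called higher and all 6 positive (median 0.61), and the thalamic markers to 518 to 837 against 637 to 1180. Of the 5 thalamic markers, 1 was called higher and 2 lower in RS (median −0.13). Meningeal fibroblast markers were at 16.8 to 49.0 against 10.3 to 43.3. The part of these markers' cells in the RS result was not tested.

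The response to SD was then measured in Mef2c f/f mice, the controls of the knockout. Of the 56 genes, 0 were called by limma (9 at an unadjusted p of at most 0.05), and 0 by edgeR, where limma called 0.0403% of all 12410 genes (0.0242% higher and 0.0161% lower). DESeq2 called 2 members, Rims4 higher and Syt9 lower, and 3.76% of all genes. Groups did not overlap for 4 members higher and 3 lower, where 8.53% and 8.90% of all genes did not. Log2 fold changes ran from −0.62 for Syt9 (adjusted p = 0.10) to 0.53 for Slc17a6 (adjusted p = 0.16). Rims1 was at 1033, 1106, 1144 and 1069 rescaled CPM in Mef2c f/f CS and at 1019, 980 and 1105 in SD, with nearly the same range. The difference was −0.07 ± 0.09. Syt1 was at 2744, 2816, 3246 and 2937 in CS and 2660, 2594 and 2900 in SD (−0.11 ± 0.11). Ppfia2 was at 410, 391, 586 and 332 in CS and 418, 374 and 450 in SD (−0.03 ± 0.17). Doc2b was at 6.73, 7.28, 5.91 and 7.42 in CS and 8.42, 10.97 and 7.27 in SD, and the groups overlapped (0.34 ± 0.15, adjusted p = 0.27). Without CS replicate 1, 3 members were called (Syt4 higher, Syt9 and Rab3b lower). The share of all genes called without it is not given here, so this count is not read as particular to the members.

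The difference between the WT and Mef2c f/f responses was tested as an interaction, which was called for 9 members at an adjusted p of at most 0.05, all with a more positive response in Mef2c f/f, where 15.1% of all 13106 genes were called (9.35% more positive and 5.78% more negative). The log2 differences were 0.89 ± 0.24 for Pclo, 0.84 ± 0.25 for Ppfia2, 0.81 ± 0.20 for Rims2 and 0.77 ± 0.16 for Rims1. Slc17a6 had 0.71 ± 0.22, Erc1 0.55 ± 0.14, Syt1 0.53 ± 0.17, Stxbp5 0.47 ± 0.15 and Syt16 0.45 ± 0.12. The adjusted p of these 9 ran from 0.016 for Rims1 to 0.046 for Syt1. Apart from Slc17a6, which was not called in either genotype (−0.18 ± 0.13 in WT and 0.53 ± 0.16 in Mef2c f/f), they were genes that fell in WT SD. The test shares the WT libraries with that comparison. For Doc2b the difference was −0.50 ± 0.23 (adjusted p = 0.12) and for Sv2a −0.66 ± 0.23 (adjusted p = 0.053).

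Which of these 9 were called depended on the scale and on the trend correction. On CPM as deposited, where the median of all genes moved to −0.30, 4 of the 9 stayed called (Rims1, Rims2, Pclo and Ppfia2), and 11 other members, among them Sv2a (−0.93) and Doc2b (−0.75), were called more negative in Mef2c f/f, where 3.87% of all genes were called more positive and 22.3% more negative. With quantile normalization Erc1 and Slc17a6 stayed called and Sv2a was more negative (7.52% and 3.15% of all genes). With the trend on base composition and transcript length removed, Rims1 (0.65), Rims2 (0.82) and Erc1 (0.56) stayed called, where 2.21% of all genes were called. The other 6 were not (Pclo 0.52, Slc17a6 0.39, Syt1 0.35, Ppfia2 0.29, Syt16 0.17 and Stxbp5 0.0039). In these 3 settings the sign of 8 of the 9 stayed positive, and that of Syt1 turned with quantile normalization (−0.019). The count was 0 without Mef2c f/f SD replicate 3 and 1 without SD replicate 1, CS replicate 2 or CS replicate 4. The CS levels are set side by side without a test. Mef2c f/f CS had a mean of 1088 ± 47.8 for Rims1 (n = 4), where WT CS had 1687 ± 247 (n = 6) and WT SD 936 ± 113 (n = 7). For Syt1 the means were 2936 ± 222 in Mef2c f/f CS, 3916 ± 732 in WT CS and 2486 ± 225 in WT SD. WT columns sum to 925580 to 985958 CPM and the others to 1000000, so genotype and the making of the libraries and their columns cannot be told apart here.

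**Figure D4:**
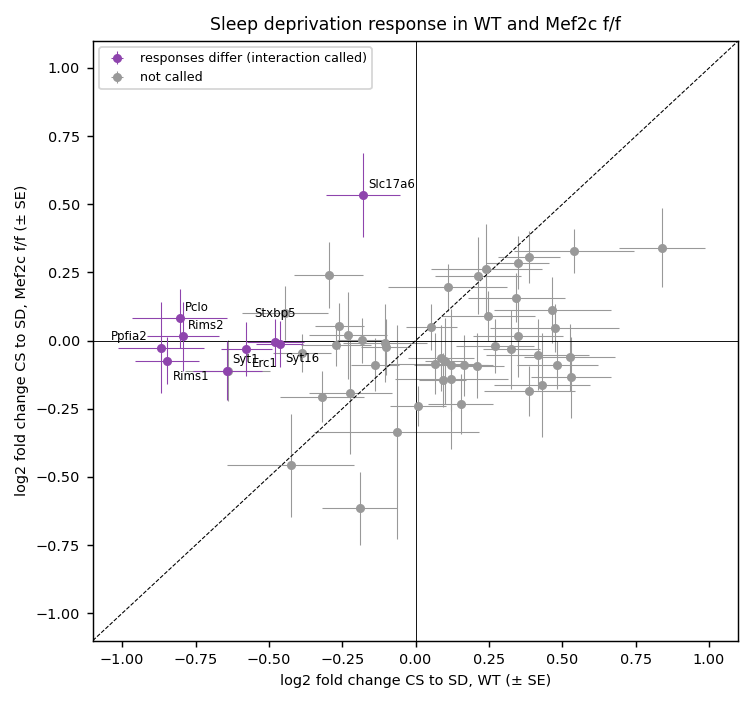
Log2 fold change from CS to SD (± SE) of the 56 release genes in WT (horizontal) and Mef2c f/f (vertical), with a dashed line where both are equal. The 9 genes whose responses differ (purple) lie above the line, 8 of them at WT values of −0.46 to −0.87 and Mef2c f/f values near 0.

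In Mef2c-cKO mice, 0 members were called from CS to SD by limma (1, Rph3a, at an unadjusted p of at most 0.05), by edgeR or by DESeq2. Limma and edgeR each called 0.0234% of all 12810 genes, and DESeq2 called 0.195%. Groups did not overlap for 3 members higher and 1 lower, where 4.49% and 4.56% of all genes did not. The values ran from −0.28 to 0.40, with the widest for Cplx2 (0.40 ± 0.23). Rims1 was at 529, 686 and 620 rescaled CPM in CS and 685, 587 and 724 in SD (0.12 ± 0.13). The interaction of genotype with SD (Mef2c-cKO minus Mef2c f/f) was called for 0 members by limma, edgeR and DESeq2 (2, Rims4 and Ppfia1, at an unadjusted limma p of at most 0.05). Limma and edgeR each called 0.00778% of all 12860 genes, and DESeq2 called 0.459%. The 95% intervals of the limma interaction over the members lay within −1.09 and 1.20.

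The last question was how the release genes differ between Mef2c-cKO and Mef2c f/f mice in the same sleep state. In CS, 8 members were called, 2 higher and 6 lower in Mef2c-cKO, where 7.67% of all 12681 genes were called (3.17% higher and 4.50% lower). In SD, 20 were called, 8 higher and 12 lower, where 15.1% of all 12774 genes were called (9.10% higher and 5.99% lower). All 8 of CS were among the 20 of SD, with the same direction, and these comparisons share no library: Syt9 and Sv2c were higher, and Syt2, Syt7, Syt16, Rims1, Rims2 and Erc2 lower. Of the 56 genes, 45 had the same sign in both. The active zone and priming genes that were called were all lower, 3 in CS and 7 in SD of 15, and the vesicle proteins that were called were all higher, 1 in CS and 4 in SD of 13. SNAREs were called lower in SD for 2 of 4, and SNARE partners for 0 of 7. Calcium sensors and related C2 proteins were split, 4 higher and 3 lower of 17 in SD. Groups without overlap were seen for 3 members higher and 13 lower in CS (13.4% and 13.5% of all genes) and for 10 higher and 20 lower in SD (21.6% and 18.7%).

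The fast calcium sensors moved in opposite directions. Syt2, which triggers fast release at parvalbumin interneuron and hindbrain synapses, was at 56.7, 55.97, 41.8 and 66.1 rescaled CPM in Mef2c f/f CS and at 39.4, 28.7 and 18.8 in Mef2c-cKO CS. In SD it was at 58.3, 72.2 and 63.1 in Mef2c f/f and at 25.8, 21.6 and 24.4 in Mef2c-cKO. The groups did not overlap in either state (CS −0.96 ± 0.23, adjusted p = 0.041; SD −1.41 ± 0.10, adjusted p = 0.00017). Syt9, the sensor of fast release in striatal and limbic neurons, was at 11.2, 11.1, 14.4 and 11.6 in Mef2c f/f CS and at 31.3, 31.2 and 24.3 in Mef2c-cKO CS. In SD it was at 7.19, 6.87 and 9.12 against 23.8, 19.1 and 28.9. It was higher in every Mef2c-cKO library (CS 1.22 ± 0.14, adjusted p = 0.0032; SD 1.56 ± 0.16, adjusted p = 0.0010). The slow sensor Syt7 was lower in CS (181, 220, 229 and 240 against 170, 149 and 118) and in SD (196, 198 and 192 against 136, 117 and 155), with log2 fold changes of −0.58 ± 0.14 and −0.53 ± 0.10. Syt16 was at −0.50 ± 0.08 and −0.49 ± 0.13. Syt1 was not called in either state (CS −0.43 ± 0.13, adjusted p = 0.073; SD −0.30 ± 0.12, adjusted p = 0.11).

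Of the 15 active zone and priming genes, the 3 called lower in CS (Rims1, Rims2 and Erc2) were also among the 7 of SD. For Rims1, the Mef2c f/f and Mef2c-cKO values given above do not overlap in CS (−0.84 ± 0.11, adjusted p = 0.0060) or in SD (−0.64 ± 0.10, adjusted p = 0.0048), a difference of 44.0% and 35.9%. Rims2 was at 498, 471, 640 and 474 in Mef2c f/f CS, at 346, 377 and 352 in Mef2c-cKO CS, at 508, 473 and 595 in Mef2c f/f SD and at 400, 322 and 397 in Mef2c-cKO SD (CS −0.53 ± 0.12; SD −0.49 ± 0.11). Erc2 was at 1040, 1223, 1420 and 1151 in Mef2c f/f CS against 632, 795 and 891, and in SD at 1083, 1121 and 1134 against 761, 845 and 861. These gave −0.65 ± 0.15 in CS and −0.44 ± 0.08 in SD. Rims3 was at 160, 172 and 147 against 108, 70.6 and 96.7 in SD (−0.82 ± 0.14, adjusted p = 0.0086) and was not called in CS (−0.69 ± 0.19, adjusted p = 0.054). Bsn (−0.43 ± 0.09), Rims4 (−0.35 ± 0.07) and Unc13a, the main Munc13 of cortical neurons (−0.35 ± 0.09), completed the 7 of SD. Pclo, Ppfia2 and Erc1, which fell in WT SD, were not called by genotype (−0.21 ± 0.08, −0.02 ± 0.09 and −0.06 ± 0.08 in SD).

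Of the SNAREs, Vamp1, the vesicle SNARE of fast-spiking and motor synapses, was at 95.2, 106 and 103 in Mef2c f/f SD and 68.9, 58.7 and 64.4 in Mef2c-cKO SD (−0.66 ± 0.08, adjusted p = 0.0017), and in CS at 92.7, 99.5, 83.4 and 106 against 73.4, 79.8 and 60.5 (−0.42 ± 0.12, adjusted p = 0.061). The groups did not overlap in either state. Stx1a was at 156, 151 and 157 against 114, 69.6 and 124 in SD (−0.63 ± 0.19, adjusted p = 0.0496). Vamp2 and Snap25 (SD −0.15 ± 0.09, adjusted p = 0.25), the SNAREs of most cortical terminals, were not called.

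The 8 members higher in Mef2c-cKO SD were vesicle proteins and synaptotagmins. Besides Syt9, Synpr, a synaptophysin relative, was at 118, 118 and 134 in Mef2c f/f SD and 255, 236 and 252 in Mef2c-cKO SD (1.004 ± 0.07, adjusted p = 0.00017). Syt10 was at 6.78, 5.62 and 8.38 against 18.9, 13.1 and 20.8 (1.28 ± 0.19, adjusted p = 0.0044), and Syt6 at 34.1, 43.2 and 33.8 against 57.9, 75.5 and 66.6 (0.84 ± 0.12, adjusted p = 0.0044). In SD none of these groups overlapped. Sv2c was at 39.8, 33.3, 36.0 and 38.5 in Mef2c f/f CS against 84.0, 53.7 and 58.6, and at 32.3, 41.5 and 31.1 in SD against 51.6, 96.3 and 56.6 (CS 0.79 ± 0.15; SD 0.91 ± 0.22). Syt5 (0.51 ± 0.08), Rab3b (0.51 ± 0.12) and Syn3 (0.31 ± 0.09) were also higher in SD. In CS, Synpr was at 135, 115, 233 and 107 against 265, 216 and 193, Syt10 at 9.04, 7.59, 19.9 and 4.15 against 21.9, 17.9 and 22.7, and Syt6 at 31.8, 29.1, 70.0 and 41.9 against 67.3, 55.5 and 64.5. With all libraries limma called none of these 3 in CS. Synpr was at 0.66 (adjusted p = 0.12), Syt10 at 1.20 (0.094) and Syt6 at 0.61 (0.17). The third Mef2c f/f CS library was the highest of its group for all 3 genes, and without it they were called (Synpr 0.91, Syt10 1.58 and Syt6 0.87). Leaving out the highest Mef2c f/f library can only raise these differences, so the calls without it are not support. The share of all genes called without it is not given here.

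Markers of other cell types and of neighbouring brain regions moved with these genes. The summed olfactory bulb markers (Eomes, Tbx21, Cdhr1, Th and Doc2g) were at 2.69 to 4.64 rescaled CPM in Mef2c f/f SD and 31.9 to 73.2 in Mef2c-cKO SD, and 4 of the 4 tested were called higher. In Mef2c f/f CS the sum was 50.8 in replicate 3, the library high for Synpr, Syt10 and Syt6, and 3.89 to 10.2 in the other 3, and it was 30.4 to 71.5 in Mef2c-cKO CS. WT SD replicate 9, with the highest Synpr (215) and Syt10 (24.4) of WT SD, had a sum of 70.4 against 7.98 to 17.0 in the other 6. Thalamic markers summed to 709 to 879 in Mef2c f/f CS and 403 to 442 in Mef2c-cKO CS, and to 694 to 738 and 361 to 523 in SD, with Rora lower and Calb2 and Prkcd called higher in SD, so the list did not move one way. Striatal markers were at 200 to 415 in Mef2c f/f SD and 283 to 535 in Mef2c-cKO SD, inhibitory neuron markers at 687 to 784 and 842 to 1054 (3 of 9 higher and 3 lower), and excitatory neuron markers at 2368 to 2549 and 1623 to 1993 (5 of 10 lower). Microglia markers were at 149 to 155 in Mef2c f/f SD and 186 to 204 in Mef2c-cKO SD (4 of 6 higher), and at 137 to 158 and 163 to 436 in CS. Astrocyte markers were at 983 to 1000.5 and 1169 to 1295 in SD (2 of 6 higher), and at 912 to 967 and 1098 to 2767 in CS. Mef2c-cKO CS replicate 8 stood apart, with the astrocyte sum of 2767 and the microglia sum of 436, and it was the lowest of its group for Syt2, Syt7 and Rims3. Without it, 6 members were called in CS, 3 higher and 3 lower, where 4.79% of all genes were called. Syt2 (−0.69), Syt7 (−0.44) and Rims2 (−0.52) were lost and Doc2b was added as higher. The part of these cells or regions in the genotype results was not tested.

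The calls for Syt2, Syt5, Syt6, Syt9, Syt10, Synpr, Vamp1, Rims1 and Rims3 in SD, and those for Syt9 and Rims1 in CS, were kept in each of the 7 alternatives and without each library in turn. The count in CS was 2 without Mef2c f/f CS replicate 2, 3 without Mef2c-cKO CS replicate 7 and 5 without Mef2c f/f CS replicate 4, and that in SD 11 without Mef2c f/f SD replicate 1. The shares of all genes called without these libraries are not given here. Among the other gene lists, the release-site calcium channels had 4 of 10 lower and 0 higher in both states, Cacna1a (CS −0.83; SD −0.66), Cacna1b (−0.58; −0.31), Cacnb4 (−0.54; −0.65) and Cacna2d3 (−0.52; −0.54). The further release genes had 0 higher and 2 lower of 50 in CS and 3 in each direction in SD, and the endocytosis genes 0 higher and 2 lower of 35 in CS and 3 in each direction in SD.

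**Figure D5:**
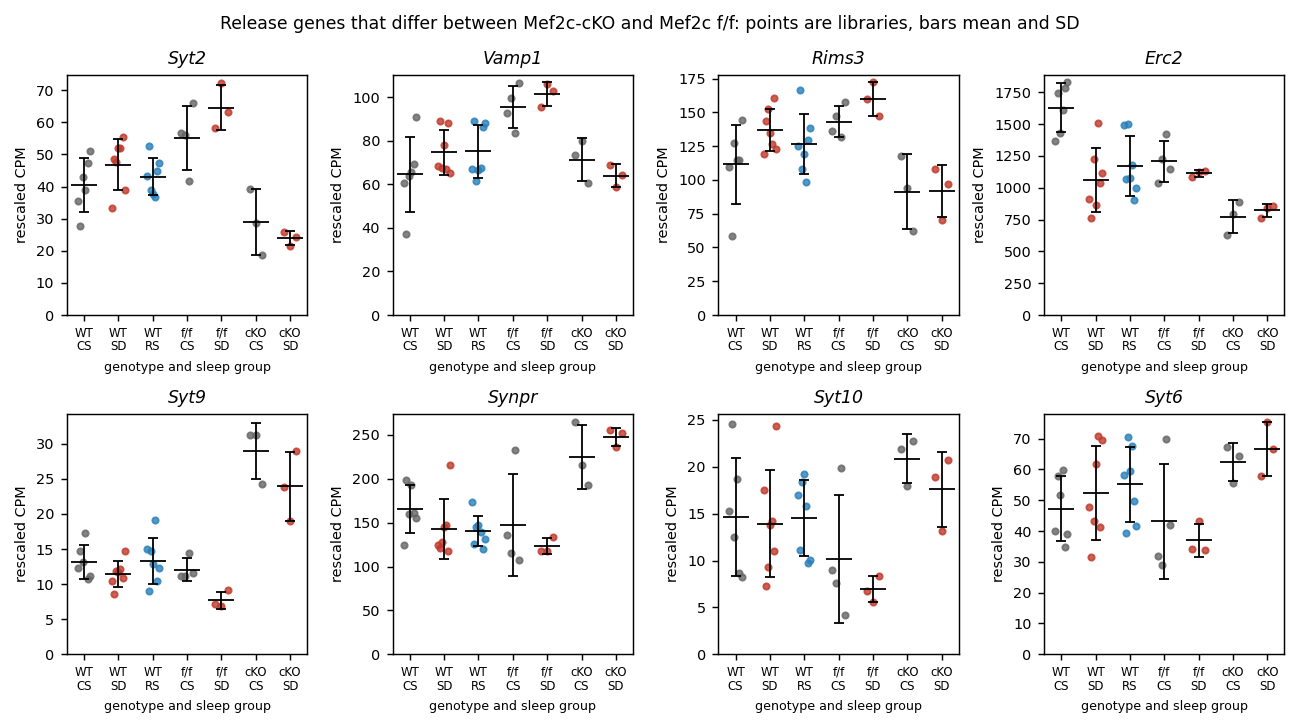
Rescaled CPM per library (points) of 8 release genes in the 7 genotype and sleep groups, with bars for the mean and SD. In SD, every Mef2c-cKO (cKO) library lies below every Mef2c f/f (f/f) library for Syt2, Vamp1, Rims3 and Erc2 and above it for Syt9, Synpr, Syt10 and Syt6.

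Set side by side, 4 of the 11 members that fell in WT SD were lower in Mef2c-cKO than in Mef2c f/f in both sleep states (Rims1, Rims2, Erc2 and Syt16), which are 4 of the 6 called lower in Mef2c-cKO CS and 4 of the 12 in SD. The share of all genes with such an overlap is not given here. Over the 56 members, the WT SD value and the genotype value had the same sign for 25 in CS and 24 in SD, so the set did not move alike. Of those that rose in WT SD, Syt5 was higher and Rims4 lower in Mef2c-cKO SD. In all, 36 of the 56 genes (64.3%) were called in at least 1 comparison, where 55% of all 13452 genes tested in any comparison were. The 20 that were called in none were the synapsins Syn1 and Syn2, Syp, Slc17a7, Vamp2, Nsf, Napa, Napb, Cplx2, Cplx3, Unc13c, Ppfia1, Rph3a, Doc2a, Sv2b, Rab3c and the synaptotagmins Syt3, Syt4, Syt11 and Syt17, among them Syp and Cplx2, which ranked 5 and 6 by level per kb.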

How the data were processed

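Libraries of polyadenylated RNA were stranded. The authors filtered the reads with FASTQC and Trimmomatic. STAR placed them on mm10, HTSeq counted those that mapped uniquely, and edgeR gave the deposited CPM. Versions, strand setting and annotation release are not given in the sources used here, so reads of overlapping genes may not be separated. Whole reads were recovered (711645 of 711645 values within 0.01 of a whole number). Precision from the totals (18935045 to 249046089 reads) covers counting error only.

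The 56 members and the gene lists were chosen with earlier results of these data known. Each library was scaled by its median-of-ratios factor (11570 genes at CPM of at least 1 in every library), 0.5 was added and log2 taken. Each comparison was fitted with limma 3.58.1 in R 4.3.3 (lmFit, and eBayes with a trend) on its own groups, for genes at CPM of at least 1 in every library of 1 or more groups. Calls needed a Benjamini-Hochberg adjusted p, over all genes tested, no higher than 0.05 and a log2 fold change of 0.3 or more in size (interactions, the p alone). The fits were tested on simulated data. Alternatives were a pseudocount of 0.1, CPM as deposited, quantile normalization, no filter, a GC content and length trend removed, edgeR 4.0.16 and DESeq2 1.42.0 on recovered reads, a replicate block, and leaving out each library. GC content, lengths and positions came from GENCODE M21 (GRCm38, the build of mm10), in which 19230 symbols matched directly and 240 by synonym.

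All members are named, and values per library are given for the 3 members of each role with the largest change in WT SD among those called anywhere, the most abundant of each role per kb and those called in Mef2c-cKO or Mef2c f/f comparisons (at most 12). Values per library of Rims2, Sv2c, Erc1 and other members outside this rule were added after their values were seen. Replicate libraries of a group correlated with a Spearman rho of 0.971 to 0.995 across genes.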

Additional observations from a re-analysis of the deposited data

Results flagged for a closer look

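In 17 of 224 groups examined, 1 library stood apart from the others of its group (the gap to its nearest neighbour was above the 95% critical value of Dixon's test). Chance gives about 1 in 20 such groups. WT CS replicate 2 accounted for 7 of them, all high: Syt1 at 5310 rescaled CPM (others 3392 to 4064), Rims1 at 2143 (1426 to 1689), Rims2 at 1425 (824 to 983), Ppfia2 at 1309 (647 to 812), Stxbp5 at 489 (329 to 376), Erc1 at 219 (167 to 181) and Slc17a6 at 44.5 (27.3 to 33.5). Without this library every one of the first 6 was still called lower in WT SD.

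Mef2c f/f CS replicate 3 was high for Syn3 at 126 (others 68.2 to 72.5), Rims2 at 640 (471 to 498) and Syt9 at 14.4 (11.1 to 11.6). The other libraries apart were Mef2c f/f CS replicate 1 for Syt4 at 232 (168 to 176), Mef2c f/f CS replicate 4 for Syt12 at 42.3 (35.0 to 35.7), WT SD replicate 1 for Rph3a at 324 (211 to 255) and WT SD replicate 9 for Synpr at 215 (118 to 148). In WT RS they were replicate 5 for Unc13a at 390 (303 to 324), replicate 4 for Sv2b, low at 573 (713 to 774), and replicate 1 for Slc17a6 at 42.4 (24.2 to 31.1).

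The response to SD differed between Mef2c f/f and WT, by the interaction test, for 9 members: Syt1 (0.53), Syt16 (0.45), Stxbp5 (0.47), Rims1 (0.77), Rims2 (0.81), Pclo (0.89), Erc1 (0.55), Ppfia2 (0.84) and Slc17a6 (0.71), as log2 differences with adjusted p of 0.016 to 0.046.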

How the results depend on the processing

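Main counts of members called were 21 in WT SD, 11 in WT RS, 8 and 20 by genotype in CS and SD, and 9 for the Mef2c f/f minus WT response. Counts that moved by more than 1.5 times are given with the share of all genes called. In WT SD they were 34 on CPM as deposited (53.5%) and 11 with the GC content and length trend removed (20.5%). In WT RS they were 5 with no filter on low values (1.99%), 3 with the trend removed (5.12%) and 17 with DESeq2 (26.8%). By genotype in CS they were 4 with no filter (5.49%) and 18 with DESeq2 (16.5%). For the Mef2c f/f minus WT response they were 15 on CPM as deposited (26.1%) and 3 with quantile normalization (10.7%). They were 5 with no filter (5.94%), 3 with the trend removed (2.21%) and 14 with DESeq2 (21.2%). From CS to SD in Mef2c f/f they were 2 with the trend removed (0.945%) and 2 with DESeq2 (3.76%), where the main count was 0. A pseudocount of 0.1 and edgeR moved no count by that much.

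Leaving out each library in turn gave 16 to 27 in WT SD, 0 to 18 in WT RS, 0 to 3 in Mef2c f/f, 2 to 9 and 11 to 21 by genotype in CS and SD, 0 to 14 for the Mef2c f/f minus WT response, and 0 throughout for WT SD to RS, Mef2c-cKO and Mef2c-cKO minus Mef2c f/f. Over all genes, the WT SD calls ran from 4509 to 6411, with 5826 in the main fit. Most other all-gene counts without a library are not given here, so the member counts are not read as particular to the members.

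The replicate number as a block gave 2 in WT SD, 19 in WT RS and 0 for the Mef2c f/f minus WT response (2.22%, 33.6% and 0% of all genes called). Same-numbered libraries had correlations of deviations of −0.33 to 0.55 (WT CS and SD), 0.068 to 0.67 (CS and RS, median 0.39) and 0.047 to 0.26 (Mef2c f/f). CS and RS libraries with different numbers ran from −0.65 to 0.62. The labels tie the numbers to no shared animal or batch, so the main fits used no block. Whether WT libraries share a batch cannot be told here and was not tested. The block changed no other count of calls, and it was not run by genotype, where the groups share no numbers.

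Among values called in the main fit or in the alternative, those that changed sign were, with the trend removed, Syt12 (−0.0020), Stx1a (−0.40, called lower, from 0.09 uncalled), Cplx1 (−0.071) and Ppfia3 (−0.030) in WT SD and Ppfia3 (−0.0038) in WT RS, and, with quantile normalization, Snap25 in WT SD (0.20) and Syt1 for the Mef2c f/f minus WT response (−0.019). Values called in neither also changed sign and are not listed. In WT SD, 31 members were positive in the main fit. There were 42 on CPM as deposited, 38 with quantile normalization and 23 with the trend removed. The cause was not tested. Over the 504 values of single members, the alternatives other than leaving out a library kept the call or its absence 3691 times, lost a call 126 times and added one 103 times, the sign changes included, and leaving out a library did so 5236, 231 and 77 times. The least covered value of any member was 81 reads (Syt10 in Mef2c f/f CS replicate 4).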
